A study of Mus musculus with 8 samples.

Results

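Sphingosine-1-phosphate is a lipid messenger, and the data described here are the transcripts of the 9 genes that make it, degrade it, carry it out of the cell or receive it, chosen by gene symbol among 32227 genes in the count tables. The members were the kinases *Sphk1* and *Sphk2*, the lyase *Sgpl1*, the exporter *Spns2* and the receptors *S1pr1*, *S1pr2*, *S1pr3*, *S1pr4* and *S1pr5*. They were measured in CD45+ cells pulled by magnetic separation from the unperfused brains of 8 male C57Bl/6J mice, labelled 5 to 6 months old, with 1 PIPseq single-cell library per mouse. The methods give a younger age range for these mice than the labels do. Of these mice 4 had received saline and 4 a single intraperitoneal dose of LPS, the bacterial endotoxin lipopolysaccharide, at 15000000 EU/kg 24 hours earlier. In each of these groups the brains of 2 mice were dissociated with DMSO and those of the other 2 with inhibitors of transcription and translation (actinomycin D, triptolide and anisomycin), and each pair came from batches 1 and 2. Because the vessels still held blood, a circulating leukocyte and a leukocyte in the tissue could not be told apart, and all cells had passed a CD45 selection, so the endothelial cells described here are those that came through it.

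As background, the kinases phosphorylate sphingosine, the lyase cleaves sphingosine-1-phosphate irreversibly, and phosphatases return it to sphingosine. *Spns2* exports it, chiefly from endothelial cells, and the gradient between blood or lymph and tissue, read by *S1pr1* on T-cells and B-cells and by *S1pr5* on NK cells and patrolling monocytes, guides the exit of lymphocytes and NK cells from tissues into the circulation. On endothelium *S1pr1* supports barrier integrity, and *S1pr2*, *S1pr3* and *S1pr4* couple to partly different G proteins and are found on myeloid, vascular and lymphoid cells.

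Cells with 800 to under 45000 UMIs (unique transcript molecules), 250 to under 6500 genes and under 5% mitochondrial counts numbered 119053, and 107504 of them (90.3%) were assigned to 9 classes from marker genes that held none of the members. There were 92572 microglia, 4680 monocytes, 4236 macrophages, 1850 neutrophils, 1418 endothelial cells, 1215 B-cells, 869 T-cells, 361 NKs and 303 dendritic cells. The libraries held 90352359 to 141182123 UMIs in all, and the median cell held 2207 to 3161 UMIs in saline libraries and 4149 to 4762.5 in LPS libraries. Barcodes below 100 UMIs, taken as free RNA, held 15.5 to 33.7% of a library, and 125 of 118918 barcodes occurred in more than 1 library. Levels are given as CPM, the UMIs of a gene per 1000000 UMIs summed over the cells of a class in a library, and values are listed in the order DMSO 1, DMSO 2, inhibitors 1, inhibitors 2 within saline and within LPS. Fold changes come from an edgeR quasi-likelihood fit of these sums with TMM scaling and ex vivo treatment as covariate, and p-values were adjusted by the Benjamini-Hochberg method over all genes tested in a class. TMM moved the fitted changes upward relative to plain library totals. The mean log2 scaling factor of saline libraries exceeded that of LPS libraries by 0.74 in microglia and 0.39 in macrophages. In these classes a CPM value can therefore be lower after LPS while the fitted change is positive. With TMM the median over all genes was -0.18 in microglia and between -0.05 and 0.02 in the other classes.

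Of 81 pairs of member and class, 37 had enough counts for a test, and 21 of these were called at an adjusted p under 0.05, 7 higher and 14 lower after LPS. With library totals in place of TMM the split was 4 higher and 19 lower. The median change over all genes was then -0.93 in microglia and -0.42 in macrophages, and the share of all genes called was not counted. With TMM 7 of 9 members were called in microglia, where 64.8% of all genes tested were called in either direction. All 5 members tested in macrophages were called (background 51.2%), as were 2 of 5 in monocytes (28.3%), 1 of 4 in neutrophils (22.8%), 1 of 2 in dendritic cells (41.5%), 0 of 2 in B-cells (12%), 1 of 2 in T-cells (20%), both in NKs (27.0%) and 2 of 6 in endothelial cells (43.3%). The rises were in the kinases, plus *Sgpl1* in endothelial cells, and the falls were in the receptors, *Spns2* and *Sgpl1*. Some members entered a test only through the group where they were high (*Sphk1* in macrophages, dendritic cells and endothelial cells through LPS, *S1pr1* in macrophages and *S1pr5* in microglia, neutrophils and NKs through saline). *S1pr4* in NKs and *S1pr1* in B-cells also entered through their 4 saline libraries, with enough counts in only 1 LPS library. *Sgpl1* in endothelial cells entered through its 4 LPS libraries, with enough counts in only 2 saline libraries. The number called is therefore not a rate over members.

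**Figure D1:**
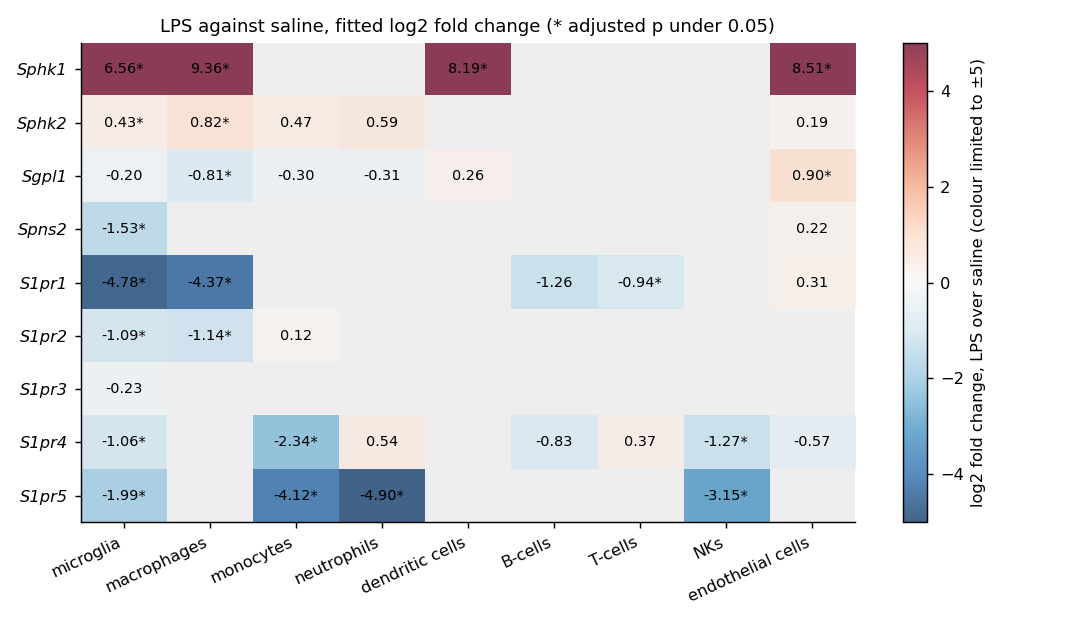
Fitted log2 fold change of LPS over saline for the 9 members (lines of the grid) in the 9 classes (columns), from 4 saline and 4 LPS libraries, with an asterisk at an adjusted p under 0.05 and grey where the gene had too few counts for a test. *Sphk1* in microglia lies at 6.56 and *S1pr5* in monocytes at -4.12.

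*Sphk1*, the inducible kinase, rose from nearly no counts in saline to clear expression after LPS in dendritic cells, macrophages, endothelial cells and microglia. In dendritic cells it was at 0 CPM in all 4 saline libraries and at 311, 326, 257 and 214 CPM in the LPS libraries, 0 against 139 UMIs. Every LPS library was above every saline library, and against a floor of 3 counts over the saline group the level was at least 60.0-fold higher (adjusted p = 9.4e-07 in edgeR's test). Macrophages held 0, 1.22, 0 and 0 CPM in saline and 126, 138, 145 and 139 CPM after LPS. That was 1 UMI against 629, a ratio of 816 with a counting interval (95%) of 146 to 32293, and the groups were far apart (adjusted p = 3.1e-12). In dendritic cells and macrophages alike *Sphk1* entered the test only through LPS.

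Endothelial cells held *Sphk1* at 0, 1.24, 0 and 0 CPM in saline and 110, 122, 105 and 138 CPM after LPS. The ratio there was 504 (1 against 341 UMIs, counting interval 89.8 to 19959.9, adjusted p = 1.9e-10), and the gene again entered the test only through LPS. In microglia the values were 0.196, 0.244, 0.243 and 0.313 CPM in saline and 10.2, 23.8, 9.65 and 12.6 CPM after LPS, with no overlap and a fitted log2 change of 6.56 ± 0.37 (SE, adjusted p = 1.6e-08), from 32 and 3428 UMIs.

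The share of cells with a *Sphk1* UMI, after thinning each cell to 1000 UMIs, was 23.9% ± 5.5 (SD, n = 4) in LPS dendritic cells, 12.7% ± 1.24 in macrophages, 9.50% ± 1.59 in endothelial cells and 1.32% ± 0.57 in microglia. In B-cells of LPS libraries no cell held one. Free RNA, estimated from haemoglobin counts, would account for at most 1.68 CPM of *Sphk1* in any of the 4 classes. Monocytes had 1 UMI in saline and 37 after LPS (ratio 7.75, counting interval 1.31 to 314) and T-cells 0 against 9 (at least 8.43-fold higher), and both were too low for the test. The dendritic cells also differed in marker levels. *Ccl22*, a chemokine of mature dendritic cells, was at 54.1 to 700.2 CPM in saline and 2045 to 5851 CPM after LPS. *Cd209a*, a marker of monocyte-related dendritic cells, was at 676 to 1050.3 CPM in saline and 0 to 35.7 CPM after LPS. Whether this was a change in makeup or in expression by the same cells was not tested, nor was its part in the *Sphk1* difference.

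**Figure D2:**
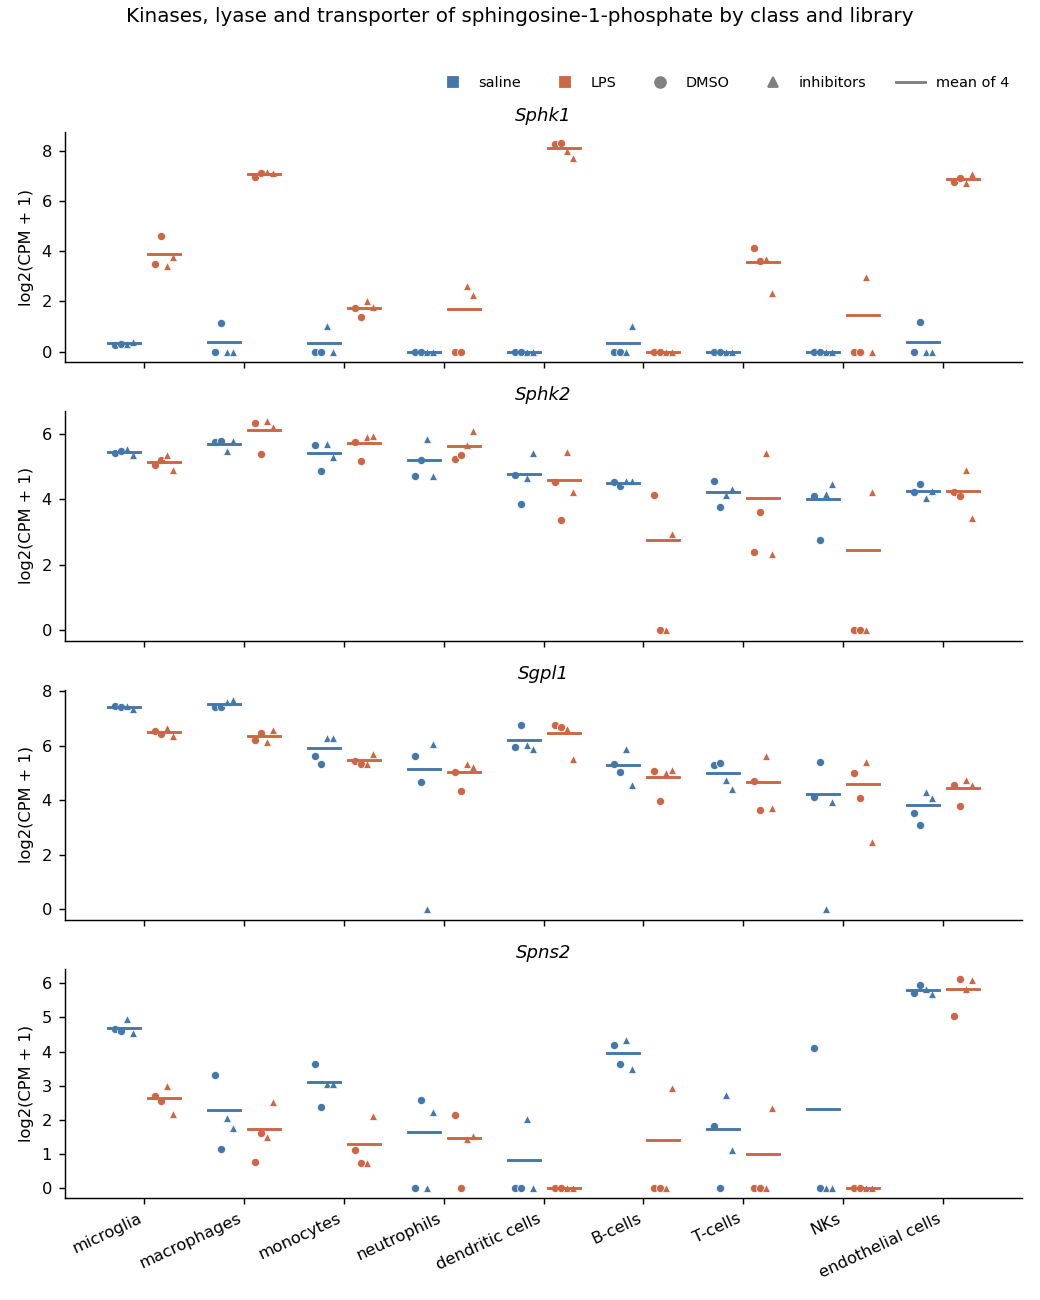
Level of the 2 kinases, the lyase and the exporter as log2(CPM + 1) (vertical axis) in each class (horizontal axis), 1 point per library with saline in blue, LPS in orange, circles for DMSO and triangles for inhibitors, and a line at the mean of 4 libraries. *Sphk1* in dendritic cells, macrophages and endothelial cells goes from at most 1.24 CPM in saline to at least 105 CPM after LPS, while *Sphk2* overlaps in most classes.

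*Sphk2*, the more constitutive kinase, changed little by comparison. In macrophages it was at 52.6, 53.8, 43.7 and 54.1 CPM in saline and at 79.6, 40.6, 82.5 and 74.0 CPM after LPS. The groups overlapped through LPS DMSO 2, the fitted change was 0.82 on the log2 scale (adjusted p = 0.0015 in edgeR), and with library totals in place of TMM it was 0.44 (adjusted p = 0.065). In microglia *Sphk2* was at 41.9, 43.3, 45.2 and 39.7 CPM in saline and 32.3, 36.1, 40.2 and 28.9 CPM after LPS. Its direction there depended on the scaling, with a fitted change of 0.43 ± 0.10 (adjusted p = 0.0023) under TMM and -0.31 (adjusted p = 0.030) under library totals. The macrophage change exceeded the microglial one by 0.61 (adjusted p = 0.0017 for the difference in edgeR, where 25.2% of all genes differed). In monocytes the change was 0.47 (adjusted p = 0.094), and in the classical monocytes alone 0.72 (adjusted p = 0.027, where 24.2% of genes were called).

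*Sgpl1*, the lyase that ends the life of sphingosine-1-phosphate, fell in macrophages, from 169, 171, 195 and 202 CPM in saline to 72.1, 86.4, 69.96 and 94.5 CPM after LPS. All LPS libraries lay below all saline libraries (log2 change -0.81, adjusted p = 3.5e-04 in edgeR). The microglial markers in these macrophage sums fell as well, from 4909 to 5361 CPM in saline to 532 to 716 CPM after LPS, and their part in the *Sgpl1* change was not tested. Microglia showed the same separation in CPM, 176, 170.1, 176 and 161 in saline and 90.6, 85.2, 99.6 and 80.4 after LPS. Relative to the other microglial genes the fitted change was only -0.20 (adjusted p = 0.086, or 0.033 with batch as a replicate block), against -0.94 (adjusted p = 3.3e-06) with library totals. In endothelial cells *Sgpl1* was higher after LPS, at 22.3, 12.8, 25.3 and 22.7 CPM against 10.5, 7.42, 18.9 and 15.9 CPM, with overlapping groups (0.90 ± 0.29, adjusted p = 0.0186). That call was lost with DESeq2, with library totals and without LPS DMSO 1 (adjusted p = 0.0936) or saline DMSO 2 (0.0561). *Sgpl1* entered the test there through its 4 LPS libraries, with only 2 saline libraries over the count filter. The LPS change of *Sgpl1* differed from the microglial one by 0.94 in endothelial cells (33.2% of genes differed there) and by -0.41 in macrophages.

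*Spns2*, the exporter, fell in microglia, and its change in endothelial cells did not pass the test. Microglia held 24.2, 23.4, 29.8 and 22.3 CPM in saline and 5.54, 4.86, 6.95 and 3.46 CPM after LPS, without overlap (log2 change -1.53 ± 0.15, adjusted p = 1.9e-06 in edgeR). Endothelial cells held 51.6, 60.6, 55.9 and 50.7 CPM in saline and 31.6, 69.0, 55.8 and 67.9 CPM after LPS, with the LPS libraries on both sides of the saline ones (0.22, adjusted p = 0.49). The 2 changes differed by 1.67 (adjusted p = 2.6e-08). Both monocytes, at 7.53 ± 2.97 CPM (SD, n = 4) in saline and 1.45 ± 1.26 after LPS (22 and 25 UMIs), and B-cells, at 14.6 ± 4.36 and 1.67 ± 3.33 CPM (35 and 1 UMIs), were lower without overlap but below the count filter. For B-cells the ratio of saline over LPS was 4.75 with a counting interval of 0.80 to 193. That interval includes no change, so no fall is read there. Free RNA would give at most 1.248 CPM in saline monocytes and 3.58 CPM in saline B-cells.

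*S1pr1*, the receptor of lymphocyte egress and of endothelial barrier, fell steeply in microglia and macrophages, by less in T-cells, and was not lower in endothelial cells. In microglia it was at 44.4, 45.7, 35.5 and 41.0 CPM in saline and at 0.974, 0.764, 0.846 and 0.988 CPM after LPS. All LPS libraries lay far below all saline libraries (log2 change -4.78 ± 0.16, adjusted p = 4.2e-10 in edgeR), and free RNA would give at most 0.323 CPM there. Macrophages fell from 83.7, 78.3, 65.6 and 78.4 CPM to 3.43, 2.03, 3.59 and 1.87 CPM (-4.37 ± 0.26, adjusted p = 5.7e-10), again without overlap, though the gene entered the test there only through saline. The 10 microglial markers, whose sum in macrophages is given above, all had a lower mean there after LPS. In microglia themselves the sum averaged 18933 CPM over the 8 libraries, and the part of this shift in the *S1pr1* fall was not tested either. Monocytes held 4.2 to 22.8 CPM in saline and 0.2 to 1.1 CPM after LPS, from 41 and 12 UMIs. There *S1pr1* was below the count filter with all 8 libraries, and in fits that left out 1 library it could pass only through saline, so no call is read from them. Of the saline UMIs 25 lay in nonclassical and 13 in classical monocytes, and the 12 after LPS all lay in classical ones. The share of nonclassical cells among monocytes fell after LPS, as given with *S1pr5*, and the part of that shift in the *S1pr1* difference was not tested.

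In T-cells *S1pr1* was at 104, 96.2, 126 and 72.0 CPM in saline and 21.0, 45.3, 53.7 and 68.5 CPM after LPS. All LPS libraries were lower than all saline libraries, but the margin between the nearest was small (-0.94 ± 0.30, adjusted p = 0.0295 in edgeR). The call was lost without LPS DMSO 1 (adjusted p = 0.187) and in 5 of the other 7 fits that left out 1 library. It was also lost with DESeq2 (adjusted p = 0.0625). In edgeR it was lost with activated cells removed (0.0666), with Scrublet cells removed (0.0531) and in inhibitor libraries alone (-0.50, adjusted p = 0.50). Microglial markers in the T-cell sums went from 1844 to 2270 CPM in saline to 198 to 429 CPM after LPS and B-cell markers from 215 to 506 to 17.9 to 51.0 CPM, and their part in the T-cell *S1pr1* difference was not tested. T-cells with and without a *Cd8a* or *Cd8b1* UMI gave -0.61 (adjusted p = 0.305) and -1.36 (adjusted p = 0.0696). B-cells had 120.4, 74.5, 103 and 80.2 CPM in saline and 49.4, 14.8, 0 and 40.0 CPM after LPS, from 16 to 59 cells per LPS library. The groups did not overlap (-1.26, adjusted p = 0.067, or 0.0488 with the replicate block and 0.0254 without saline DMSO 2). *S1pr1* in B-cells entered the test through its 4 saline libraries, with only 1 LPS library over the count filter, so no call is read from these fits. Endothelial cells held the highest *S1pr1*, at 975, 439, 1119 and 494 CPM in saline and 914, 600, 869 and 814 CPM after LPS. The groups overlapped (0.31 ± 0.24, adjusted p = 0.34), and within saline the batch 1 libraries exceeded the batch 2 libraries. With the block the endothelial change was 0.39 (adjusted p = 0.046). Against microglia the LPS change differed by 5.10 in endothelial cells, 4.18 in T-cells (12.9% of genes differed) and 3.48 in B-cells (12.6%). In NKs no member's change was called different from the microglial one (background 6.12%).

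**Figure D3:**
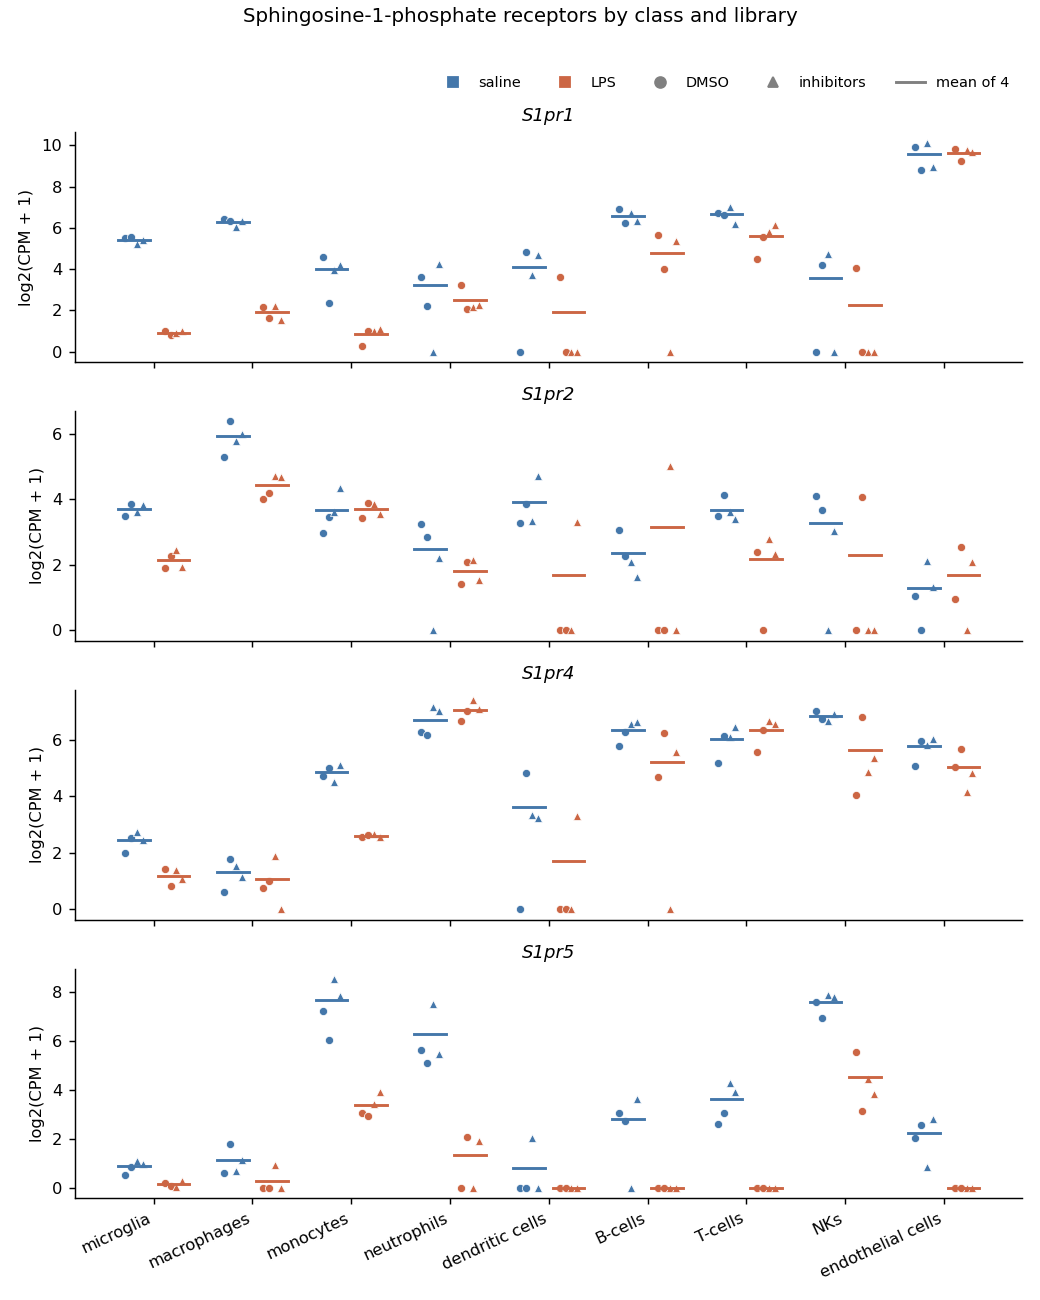
Level of 4 receptors as log2(CPM + 1) (vertical axis) in each class (horizontal axis), 1 point per library with saline in blue, LPS in orange, circles for DMSO and triangles for inhibitors, and a line at the mean of 4 libraries. *S1pr1* drops below 1 CPM in microglia after LPS while endothelial cells stay between 439 and 1119 CPM in all 8 libraries, and *S1pr5* drops in monocytes, neutrophils and NKs.

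*S1pr2*, which couples mainly to G12 and G13 proteins, fell in macrophages and microglia. Macrophages held 38.4, 81.9, 54.4 and 63.0 CPM in saline and 15.1, 17.3, 25.1 and 24.3 CPM after LPS, without overlap (-1.14, adjusted p = 0.0012 in edgeR), beside the same fall of microglial markers. Microglia went from 10.2, 13.5, 11.3 and 13.1 CPM to 2.74, 3.78, 4.43 and 2.78 CPM (-1.09, adjusted p = 1.9e-04). In monocytes the change was 0.12 and not past the threshold, which differed from microglia by 1.54 (adjusted p = 5.6e-04, where 23.1% of genes differed). *S1pr3*, best known from vascular cells, was low in all 9 classes. In microglia its change was -0.23 (adjusted p = 0.53), and dendritic cells had 0 UMIs in saline and 8 after LPS (at least 3.45-fold higher), too few for a test within the class. The test of its difference from microglia, which called 12.1% of genes in dendritic cells, was past the threshold but rests on these 8 UMIs, and no size is read from it.

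*S1pr4*, a receptor of leukocytes, fell in monocytes and in NKs, and its change in neutrophils did not pass the test. Monocytes held 25.1, 30.8, 21.6 and 33.8 CPM in saline and 4.92, 5.15, 5.36 and 4.84 CPM after LPS. No LPS library came near the lowest saline library (-2.34 ± 0.28, adjusted p = 5.9e-05 in edgeR), and classical monocytes alone gave -2.50. Neutrophils held 76.1, 71.4, 141 and 127 CPM in saline and 99.3, 129.7, 168 and 136 CPM after LPS, overlapping (0.54, adjusted p = 0.13). NKs went from 129, 105, 101 and 121 CPM to 15.3, 111, 27.7 and 40.0 CPM, where LPS DMSO 2 lay inside the saline range. That change was -1.27 (adjusted p = 0.024) and was lost in 5 of 8 fits that left out 1 library, with the highest adjusted p, 0.105, without saline inhibitors 2. *S1pr4* in NKs entered the test through its 4 saline libraries, with only 1 LPS library over the count filter. The call was also lost without that filter (adjusted p = 0.18 in edgeR) and with DESeq2 (adjusted p = 0.0596). Microglia, at 2.94 to 5.58 CPM in saline and 0.764 to 1.65 CPM after LPS, also fell (-1.06, adjusted p = 0.0029). The LPS change differed from the microglial one by 1.96 in neutrophils (21.1% of genes differed) and 1.85 in T-cells.

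*S1pr5*, the receptor of NK cell and patrolling monocyte traffic, fell in NKs, monocytes, neutrophils and microglia, and in all of these but monocytes it could enter the test only through saline. NKs held 193, 122, 236 and 220.0 CPM in saline and 45.9, 7.91, 20.8 and 13.3 CPM after LPS, with no overlap (-3.15 ± 0.40, adjusted p = 3.4e-06 in edgeR). The 11 monocyte markers summed to 1214 to 2576 CPM in saline NKs and 790 to 1094 CPM in LPS NKs, against a mean of 7227 CPM in monocytes. The list is not specific to monocytes. Its sum was 1078 to 1299 CPM in saline T-cells and 583 to 1273 CPM in LPS T-cells. In neutrophils it was 3163 to 7320 CPM in saline and 11761 to 15330 CPM after LPS. The part of these markers in the *S1pr5* difference of NKs was not tested. Monocytes held 148, 65.0, 369 and 228 CPM in saline and 7.28, 6.75, 9.72 and 14.3 CPM after LPS (-4.12 ± 0.29, adjusted p = 8.6e-07). The marker split of the monocytes shifted at the same time. Cells with more nonclassical than classical marker UMIs were 37.1 to 59.7% of split monocytes in saline and 5.61 to 9.22% after LPS. Split markers also moved in the monocyte sums, the nonclassical *Ace* from a mean of 252 to 13.4 CPM. Of the classical markers *F10* rose from 96.4 to 379 CPM and *Ccr2* fell from 721 to 211 CPM. Whether the makeup or the expression of the same cells changed was not tested.

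Nonclassical monocytes, the patrolling subset, carried 637 of the 657 *S1pr5* UMIs of saline monocytes and 32 of 152 after LPS. Within them the level was 477, 370, 836 and 825 CPM in saline and 36.7, 56.5, 20.3 and 70.9 CPM after LPS, without overlap (-3.73 ± 0.32, adjusted p = 1.9e-07, where 33.7% of genes were called). The LPS libraries held 11, 6, 3 and 12 UMIs, so in this subset the gene passed the count filter through saline. Classical monocytes were low in both groups, at 9.87, 6.22, 7.41 and 6.13 CPM and then 4.70, 5.11, 7.55 and 11.5 CPM (0.04, adjusted p = 0.957).

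Neutrophils held 47.9, 33.2, 183 and 43.6 CPM of *S1pr5* in saline and 0, 3.20, 0 and 2.82 CPM after LPS (-4.90 ± 0.63, adjusted p = 5.9e-05), from 69 and 5 UMIs. Of the 69 saline UMIs, 54 lay in the 57 of 422 saline neutrophils that also held a UMI of the nonclassical monocyte markers *Ace*, *Treml4* or *Adgre4*. Without such cells the values were 18.2, 4.13, 51.4 and 14.7 CPM in saline and 0, 3.35, 0 and 1.08 CPM after LPS (15 against 3 UMIs), too few for a test. Microglia were near 0 in both groups, at 0.45 to 1.13 CPM and 0.03 to 0.21 CPM (-1.99, adjusted p = 0.0019). T-cells had 28 UMIs in saline and 0 after LPS (at least 3.32-fold lower), and endothelial cells 16 and 0 (at least 3.61-fold lower).

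**Figure D4:**
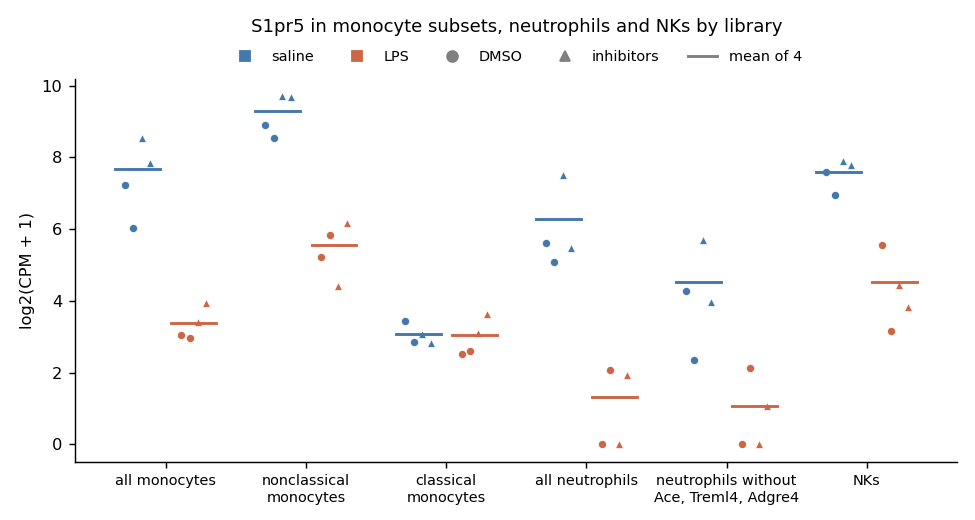
*S1pr5* as log2(CPM + 1) (vertical axis) in all monocytes, their 2 subsets, neutrophils with and without cells holding *Ace*, *Treml4* or *Adgre4*, and NKs (horizontal axis), 1 point per library with saline in blue, LPS in orange, circles for DMSO and triangles for inhibitors, and lines at group means. Nonclassical monocytes go from 370 to 836 CPM down to 20.3 to 70.9 CPM, while classical monocytes overlap.

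The 250 bases before the *S1pr5* start are shown because the fall of this receptor in NKs and monocytes is described above. They lie on the minus strand at chr9:21248444-21248693 in RefSeq's GRCm38.p6 annotation, a different build from that of the counts, and are printed in lower case with no part marked.
S1pr5: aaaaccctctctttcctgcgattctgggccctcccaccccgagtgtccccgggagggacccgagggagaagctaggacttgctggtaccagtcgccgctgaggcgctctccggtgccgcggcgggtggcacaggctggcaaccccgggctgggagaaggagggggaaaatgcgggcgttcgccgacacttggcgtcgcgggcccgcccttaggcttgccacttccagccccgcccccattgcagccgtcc
The letters TCACAC of a T-box motif, searched on both strands and found in 12.3% of all 32851 mouse windows of this length, had 0 matches. RefSeq's table held promoters for 8 of the 9 members.

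The orders that follow are among the 9 classes only, and other cell types, described at the end, can lie higher. Over all 8 libraries *S1pr1* had its highest mean in endothelial cells, 778 CPM ± 242 (SD, n = 8), followed among these classes by T-cells at 73.3 and B-cells at 60.3 CPM. Within the same 9 classes *S1pr5* was highest in NKs (107 CPM) and monocytes (106 CPM), *S1pr4* in neutrophils (119 CPM) and NKs (81.1 CPM), *S1pr2* in macrophages (39.9 CPM), *Spns2* in endothelial cells (55.4 CPM) with microglia next (15.1 CPM), and *Sgpl1* in macrophages (132 CPM) and microglia (130 CPM). These means pool saline and LPS libraries, and some orders turned within a group. In saline *S1pr5* averaged 202 CPM in monocytes and 193 in NKs, and *S1pr4* 114 CPM in NKs and 104 in neutrophils. After LPS *Sgpl1* averaged 89.0 CPM in microglia and 80.7 in macrophages. Neighbours in such an order were compared mouse by mouse in 72 pairs by an exact two-sided sign-flip permutation test. No pair passed, since the smallest p that 8 mice allow, 0.0078, gave an adjusted p of 0.0938. The genes most alike across the 9 class means, by Pearson's r of log2(CPM + 1) and given only as a description, were *Fgfr1* for *Sphk1* (0.93), *Rnf149* for *Sphk2* (0.99), *P2ry6* for *Sgpl1* (0.98), *Edem3* for *Spns2* (0.94), *Tnfsf10* for *S1pr1* (0.97), *Dse* for *S1pr2* (0.96), *Sod1* for *S1pr3* (0.95), *Zdhhc18* for *S1pr4* (0.91) and *Fgfr1op2* for *S1pr5* (0.95).

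Among 10 genes for phosphatases, export and carriers of sphingosine-1-phosphate, 2 rose and 3 fell of 9 tested in microglia (64.8% of all genes called), 1 rose and 2 fell of 5 in macrophages (51.2%), 2 rose and 0 fell of 5 in monocytes (28.3%), and 3 rose and 2 fell of 7 in endothelial cells (43.3%). The list's median log2 change was -0.27, -0.73, -0.32 and 0.08 in these classes, in that order, against -0.18, -0.04, -0.04 and -0.01 over all genes. With library totals the counts were 1 higher and 7 lower in microglia, 1 and 4 in macrophages, 1 and 1 in monocytes, and 3 and 3 in endothelial cells. The median over all genes was then -0.93, -0.42, -0.17 and -0.24 in these classes, and the share of all genes called was not counted. *Plpp1*, a lipid phosphate phosphatase of the cell surface, rose in all 4, from 10.3 ± 1.54 (SD, n = 4) to 146 ± 43.7 CPM in macrophages (log2 change 4.19, adjusted p = 6.4e-11 in edgeR), by 2.68 in monocytes, 1.24 in microglia and 0.90 in endothelial cells. *Sgpp2*, a sphingosine-1-phosphate phosphatase, fell in endothelial cells from 174 ± 6.88 to 4.72 ± 2.71 CPM (-4.86, adjusted p = 5.4e-10). *Plpp3* moved in opposite directions, by 1.81 in endothelial cells and -1.57 in microglia, and *Sgpp1* fell in macrophages (-1.61) and microglia (-0.56). *Mfsd2a*, the blood-brain barrier lipid transporter, fell in endothelial cells (-2.37), and *Abca1*, a lipid exporter, fell in macrophages (-2.41).

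**Figure D5:**
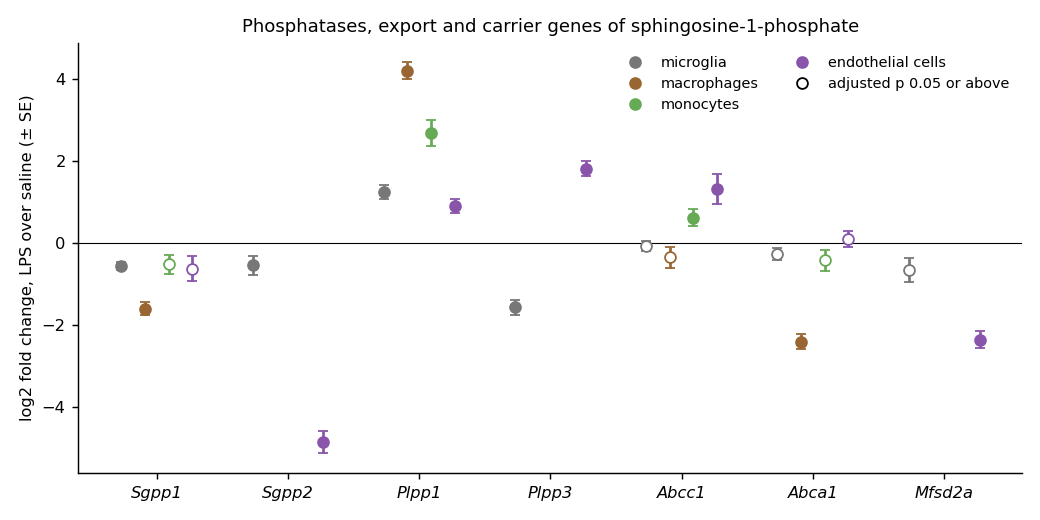
Fitted log2 fold change of LPS over saline ± SE (vertical axis) for 7 phosphatase, export and carrier genes (horizontal axis) in 4 classes by colour, filled where the adjusted p was under 0.05. *Plpp1* is above 0 in all 4 classes, and *Sgpp2* in endothelial cells lies at -4.86.

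Of 29 genes for ceramide and sphingosine enzymes, 9 rose and 11 fell in microglia (64.8% of all genes called), 7 rose and 6 fell of 21 tested in macrophages (51.2%), and 5 rose and 10 fell of 22 in endothelial cells (43.3%). Their median log2 changes were -0.15, 0.13 and -0.36. With library totals 3 were higher and 23 lower in microglia, 3 and 8 in macrophages, and 3 and 11 in endothelial cells. The median over all genes was then -0.93, -0.42 and -0.24 in these classes, and the share of all genes called was not counted. *Degs1*, which makes ceramide from dihydroceramide, rose in microglia (1.93) and macrophages (1.03). In dendritic cells its change was -0.95, a call that was lost with the replicate block (adjusted p = 0.0544 in edgeR) and without saline inhibitors 1 (adjusted p = 0.188). *Cerk*, the ceramide kinase, fell in microglia (-1.70). In endothelial cells *Kdsr* (1.17) and the ceramidases *Acer3* (1.10) and *Acer2* (0.89) rose, and *Ormdl3* (-1.33), an inhibitor of sphingolipid synthesis, and *Sgms1* (-0.77), a sphingomyelin synthase, fell. *Sgms1* rose in macrophages (1.17, or 0.78 with library totals, still called). Among 20 regulators and effectors of the receptors, *Gna13*, the G protein of *S1pr2*, rose in microglia, macrophages, monocytes, neutrophils, B-cells, T-cells and endothelial cells, by 0.70 to 2.00, although with library totals the microglial change was -0.05 and the B-cell and T-cell calls were lost. *Arrb1*, a beta-arrestin, fell most in macrophages (-3.21) and microglia (-2.58). *Klf2*, a transcription factor that drives *S1pr1* in T-cells, fell in microglia, macrophages, dendritic cells, B-cells and NKs, from -1.48 to -2.82, and was not among the T-cell calls. Its groups overlapped in microglia, at 121 ± 137 CPM (SD, n = 4) in saline and 15.2 ± 9.68 after LPS, and in macrophages, at 428 ± 413 and 97.7 ± 51.2 CPM.

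No member was called between DMSO and inhibitors in any class by edgeR, and DESeq2 also called 0. Without the filter on low counts 1 was called, *S1pr5* in monocytes, lower with DMSO by 1.14 on the log2 scale (adjusted p = 0.00189 in edgeR). Of all genes tested, 0.379% were called in microglia, 0.56% in macrophages, 0.045% in monocytes, 0.097% in neutrophils, 0.644% in dendritic cells, 0.212% in B-cells, 0.139% in T-cells, 0.0% in NKs and 0.0111% in endothelial cells. Only 3 pairs had an unadjusted p under 0.05, of which *S1pr5* in monocytes, lower with DMSO by 1.17 on the log2 scale, had an adjusted p of 0.588. The LPS change did not differ detectably between DMSO and inhibitor libraries either, with 0 members called, 0 at an unadjusted p under 0.05 and a smallest adjusted p of 0.692. The background of that comparison was 0.0246% of genes in microglia, 0.0104% in macrophages, 0.0162% in neutrophils, 0.0585% in dendritic cells, 0.0708% in B-cells and 0.0221% in endothelial cells, and 0.0% in monocytes, T-cells and NKs. After thinning, 29 of 81 shares of cells with a UMI reached the smallest exact permutation p that 4 against 4 libraries allow, 0.0286, which became 0.0798 after adjustment, with 8 higher and 21 lower after LPS. No such count was made over all genes, so these numbers are not read as a result about the members.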

How the data were processed

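CD45+ brain cells of 8 mice were profiled by PIPseq (T20 kit), 1 library per mouse. According to the methods, the authors matched barcodes, aligned with STAR to GRCm39 and counted unique molecules with PIPseeker v2.0; the deposited counts are whole UMIs per gene and barcode, with neither normalization nor selection of cells, and the submitters' notes name Seurat 4. The limits on UMIs, genes and mitochondrial share were those of the methods. Their complexity limit of 0.8, on log10 counts over log10 genes, was not applied and would remove 0 of the 119053 cells as written and 52 with the ratio inverted. Each cell was assigned here to a class from its marker UMIs: at least 3 markers (2 for microglia, 5 for neutrophils over monocytes), a marker share of at least 0.2 of the median of clear cells of that class and in vivo group, and no second class at 0.5 or more of the first; 2938 cells lay near a limit, 2674 were mixed, 6252 fitted no class (1472 saline, 4780 LPS) and 2623 belonged to other classes. These limits were set after the data had been seen, and the members and lists were chosen with earlier results of these data known. Doublets were treated by the mixed rule, and Scrublet scores gave an alternative.

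UMIs were summed per library and class and fitted in edgeR 4.0.16 (R 4.3.3, limma 3.58.1) as in vivo plus ex vivo treatment, with filterByExpr, TMM scaling, the quasi-likelihood F-test and Benjamini-Hochberg adjustment over all genes of a class. LPS changes in another class and in microglia were compared with mouse as a block. The fit was tested on simulated counts in which a minority of genes changed, as many up as down. That setting does not test the scaling where most genes change, as in microglia. Named genes were all members, the up to 4 called genes of each other list with the largest change in each direction per class, and the genes most like a member across classes. The labels give a batch by number, so the numbers pair the samples; deviations of the batch 1 libraries in microglia correlated with r from 0.169 to 0.666 over 20339 genes. Alternatives were DESeq2 1.42.0, its size factors, library totals, no filter on low counts, the replicate block, removal of activated cells, of Scrublet cells and of free RNA, deeper cells, stricter gates and leaving out each library. Intervals and floors cover counting error only. Libraries are separate mice.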

Additional observations from a re-analysis of the deposited data

Results flagged for a closer look

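In 4 of 68 groups of 4 libraries, 1 library stood apart from the other 3 by Dixon's ratio, which chance does in about 1 group in 20. *Sphk2* in saline macrophages was lowest in inhibitors 1 (43.7 CPM, ratio 0.862). *S1pr5* in saline neutrophils was highest in inhibitors 1 (183 CPM, ratio 0.902), a library with 39 neutrophils. *Sgpl1* in dendritic cells was highest in saline DMSO 2 (108 CPM, ratio 0.886) and lowest in LPS inhibitors 2 (44.6 CPM, ratio 0.848).

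The LPS change of a member differed from that in microglia in 17 of 68 pairs (25%) by the test of the difference itself (log2, adjusted p under 0.05 in edgeR), where 6.12 to 33.2% of all genes differed depending on the class. For *S1pr1* the change was higher by 3.48 in B-cells, 4.18 in T-cells, 5.10 in endothelial cells and 4.33 in neutrophils. The neutrophil value rests on 12 UMIs in saline and 13 after LPS, was untested within the class, and its saline mean of 8.28 CPM lay within the 8.76 CPM that free RNA could give. For *S1pr2* it was higher by 1.54 in monocytes. For *S1pr3* it differed by 11.68 in dendritic cells, where saline held 0 UMIs so that the size is no measure, by 1.81 in endothelial cells and by -3.47 in monocytes. The last 2 values rest on 17 UMIs in saline and 29 after LPS in endothelial cells, and on 17 and 5 in monocytes. *S1pr3* was untested within both classes, and 8 of the saline monocyte UMIs lay in classical monocytes of saline inhibitors 2 alone. *S1pr4* differed by 1.85 in T-cells and 1.96 in neutrophils, *Sgpl1* by 0.94 in endothelial cells and -0.41 in macrophages, *Sphk2* by 0.61 in macrophages and *Spns2* by 1.67 in endothelial cells. *Sphk1* differed by 3.76 in macrophages, where saline held 1 UMI and the gene entered the test only through LPS. *S1pr5* differed by -1.89 in monocytes and -2.80 in neutrophils, and in microglia and neutrophils it entered the test only through saline. Classical monocytes alone changed by 0.04, so the monocyte value is not a change of all monocytes. Of the 69 saline UMIs in neutrophils, 54 lay in the 57 cells that also held *Ace*, *Treml4* or *Adgre4*.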

How the results depend on the processing

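The 7 higher and 14 lower calls after LPS became 4 higher and 19 lower with library totals, 11 and 18 without a filter on low counts, and 4 and 11 with the DMSO libraries alone, and leaving out 1 library gave 6 to 7 higher and 13 to 16 lower. The share of all genes called was not counted for these alternatives or for the replicate block below. Library totals added lower calls of *Sgpl1* (-0.94), *S1pr3* (-0.996) and, with its sign changed, *Sphk2* (-0.31) in microglia, of *S1pr1* in B-cells (-1.49) and of *S1pr4* in endothelial cells (-0.79). With TMM and classical monocytes alone *S1pr5* was at 0.042. Without the filter 1 member was lower with DMSO than with inhibitors (*S1pr5* in monocytes, -1.14, adjusted p = 0.00189 in edgeR). Counting only cells with at least 2 UMIs, 5 shares were higher and 9 lower at the smallest exact permutation p, again with no count over all genes beside them. The cause of these shifts was not tested.

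With the replicate block 8 members were higher and 16 lower: the calls gained were *Sgpl1* in microglia, *S1pr1* in B-cells (which entered the test through saline) and *S1pr1* in endothelial cells, and the block changed no other call among the members. For the other pathway genes it gave 73 higher and 75 lower against 64 and 70. Over all alternatives of LPS against saline, those above included, 734 values for single members kept their direction and side of the threshold, 33 lost a call, 14 gained one and 2 changed sign. The 303 dendritic cells, 361 NKs and the 16 to 59 B-cells per LPS library limit what could be detected there.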

Other observations

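Cells of other classes were few and were not tested, so CPM of the UMIs pooled over the 4 libraries of a group are given, with no error. *S1pr3* was at 222 CPM in saline and 312 CPM after LPS in 359 pericytes and smooth muscle cells, a class in which *Sphk1* was at 1.33 and 41.7 CPM and *S1pr1* at 145 and 41.7 CPM. *S1pr1* was at 362 and 296 CPM in 93 astrocytes. In 124 oligodendrocytes *S1pr5* was at 248 and 149 CPM and *Spns2* at 56.2 and 149 CPM. *Sphk1* was at 6.07 and 63.5 CPM in fibroblasts.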
